A study of Mus musculus with 5 samples.

Results

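The genes described here are the Fos family (Fos, Fosb, Fosl1 and Fosl2), the Jun family (Jun, Junb and Jund) and the immediate early genes Atf3, Egr1 and Ier3. They were chosen by name, and each was read from the probe set annotated with that single gene symbol. All 10 were on the array, with 1 probe set each, among 19938 genes with a symbol of their own. RNA from 5 mouse pancreatic cultures was hybridised to Affymetrix whole-transcript arrays, and each array gave 1 log2 signal per probe set. The PDAC group held 3 primary cultures of pancreatic ductal adenocarcinoma cells with the Pdx-1Cre transgene, 1 floxed allele of Apc (APCL/+) and floxed p53 alleles (p53L/L). In the normal ductal group were 2 cultures labelled as normal pancreatic ductal cells, with p53L/L and no floxed Apc. The title of replicate 1 gives Pdx-1Cre, while that of replicate 2 gives Pdx-1 without Cre and normal pancreatic cells without the word ductal. The titles thus give floxed p53 for both groups. Whether p53 was lost in each culture, among them normal ductal replicate 2 with no Cre in its title, was not tested. Pdx-1Cre makes Cre recombinase in the pancreatic lineage, from which acinar, islet and duct cells all derive. The cultures had gone through fewer than 6 passages in medium that held 10% serum. The labels call the arrays biological replicates and name no animals. The p-values therefore reflect the spread among 5 cultures, which may be technical, and the small number of arrays limited the precision.

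AP-1 is a transcription factor made of pairs of basic leucine zipper proteins, most often a Fos protein with a Jun protein. The genes of Fos, Fosb, Jun, Junb, Egr1, Atf3 and Ier3 are immediate early genes: serum, growth factors or stress switch them on within minutes, with no new protein made first, and their transcripts are short-lived. ERK signalling keeps Fosl1 and Fosl2 on for longer, and Jund is made at a steadier level in most cells. In the pancreas these factors lie downstream of the growth factor and Ras signals that drive ductal adenocarcinoma.

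Before the comparison, the cultures were set against markers of the cell types a pancreas holds, as the mean log2 signal of each marker list. Duct markers (10 measured, among them Krt19, Epcam and Cdh1) averaged 6.83, 7.92 and 9.81 in PDAC replicates 1, 2 and 3, against 11.26 and 10.88 in normal ductal replicates 1 and 2. The adhesion molecule gene Epcam among them had log2 signals of 5.25, 4.84 and 7.60 in the PDAC group, against 10.19 and 9.78 in the normal ductal group. Of the 10 duct markers, 7 were lower in every PDAC culture, against 12.8% of all genes. In PDAC replicate 3, Krt19 (11.74 against 11.46 and 11.37) and Muc1 (10.32 against 9.89 and 10.04) lay above both normal ductal cultures. Sox9 lay between them there, at 10.39 against 10.93 and 10.20. Normal ductal replicate 2, the culture with the differing title, stood apart from replicate 1 in markers of other cells. Fibroblast and stellate markers (13 measured) averaged 9.03 to 9.29 in PDAC cultures, 7.26 in normal ductal replicate 1 and 9.79 in replicate 2. In replicate 2, 11 of 13 lay more than 1 log2 unit above replicate 1, against 584 of all 19938 genes. Acinar markers (7 measured) averaged 5.21 to 5.30 in PDAC cultures, 5.15 in normal ductal replicate 1 and 7.59 in replicate 2. Islet, endothelial and leukocyte lists stood higher in that second culture than in the first, at 7.72 against 6.15, 7.47 against 6.10 and 6.09 against 5.52. PDAC cultures lay below both, at 5.36 to 5.43, 5.45 to 5.81 and 5.14 to 5.25. Lower in every PDAC culture were 5 of 7 islet, 5 of 8 endothelial and 4 of 7 leukocyte markers, against 12.8% of all genes. The list medians of log2 fold change were -0.92, -0.77 and -0.34, and -0.61, -0.18 and -0.19 without normal ductal replicate 2. More than 1 log2 unit above replicate 1 lay 4 of 7 islet, 5 of 8 endothelial and 1 of 7 leukocyte markers. That leukocyte marker was Lyz2 (8.52 against 5.67), while Ptprc was equal in both at 4.59. Fold changes of the 10 genes that move by over 1.5 times without this or another culture are therefore given without it too. For the related lists only some such shifts are given. Fold changes of other single genes are given over all 5 cultures only, and some of them also move by over 1.5 times. The part of other cells in these results was not tested. In cultures, fewer cells of a type and less RNA per cell cannot be told apart.

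The comparison of PDAC with normal ductal cultures asked whether these genes differ between tumour cells with a floxed Apc allele and duct cells without it. For Atf3, Junb and Ier3, the highest PDAC culture lay below the lowest normal ductal culture, and Atf3 was 3.28-fold lower on average. Fosb also lay lower in every PDAC culture, by a margin of only 0.046 log2 units. Fos, Fosl1, Fosl2, Jun, Jund and Egr1 overlapped between the groups. After Benjamini-Hochberg adjustment over all genes, limma called 0 of the 10 genes, with 3 lower and 0 higher at an unadjusted p under 0.05. Of all 19938 genes, 0.0552% passed the adjusted threshold, while 6.86% were lower and 6.5% higher at the unadjusted threshold. The 4 genes with no overlap compare with 12.8% of all genes that were lower in every PDAC culture and 13.6% that were higher. Without normal ductal replicate 2 the lower count was 4 of 10, against 31.7% of all genes. The median log2 fold change, PDAC over normal ductal, was -0.39 over the 10 genes and 0.01 over all genes, and 6 of the 10 were below 0 against 46.8% of all genes. The median of the 10 genes was -0.20 without normal ductal replicate 1 and -0.24 without PDAC replicate 1.

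**Figure D1:**
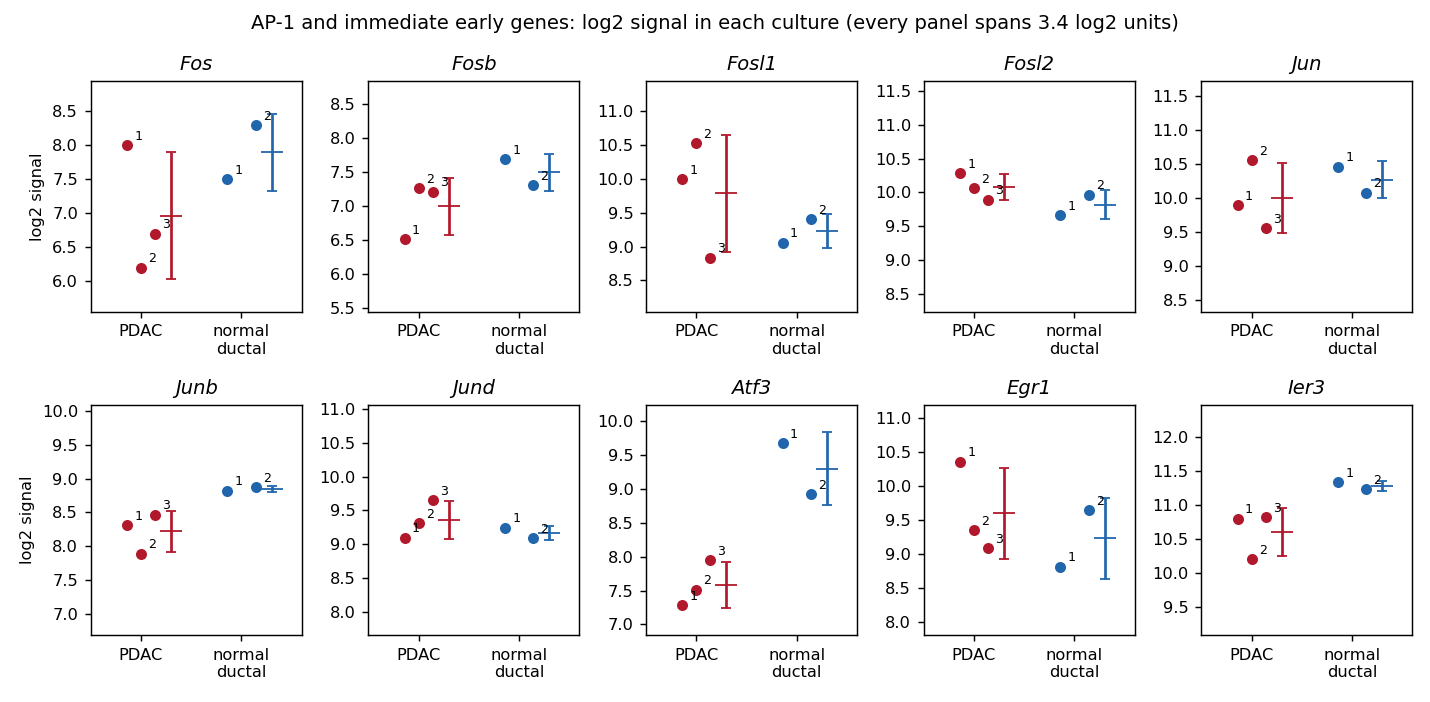
Log2 signal (vertical axis) of the 10 genes in PDAC (red, 3 cultures) and normal ductal cultures (blue, 2 cultures), with replicate numbers beside the points and mean ± SD at the right of each group. Atf3, Junb and Ier3 part the groups, Fosb does so by 0.046, and the other 6 genes overlap.

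Atf3 encodes a stress-induced basic leucine zipper protein that pairs with Jun proteins and often represses its targets. Its log2 signal was 7.29, 7.51 and 7.95 in PDAC replicates 1, 2 and 3, against 9.67 and 8.92 in normal ductal replicates 1 and 2. The highest PDAC culture thus lay 0.97 below the lowest normal ductal culture, the widest gap among the 10 genes. Atf3 averaged 7.58 ± 0.34 (SD, n = 3) in PDAC cultures and 9.30 ± 0.53 (SD, n = 2) in normal ductal cultures. The log2 fold change of Atf3 was -1.72 (SE 0.34, 95% interval -2.66 to -0.77), with an unadjusted p of 0.00745 in the limma fit over all genes and an adjusted p of 0.214, which did not pass. Without normal ductal replicate 2 the log2 fold change of Atf3 was -2.09 (adjusted p in limma 0.136), and without replicate 1 it was -1.34 (adjusted p in limma 0.223). Across the PDAC cultures Atf3 was ordered as the duct markers were, lowest in replicate 1 and highest in replicate 3. The part of epithelial content in the Atf3 difference was not tested.

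Junb, a Jun protein that can hold back cell division, had log2 signals of 8.32, 7.89 and 8.47 in PDAC cultures, against 8.82 and 8.87 in normal ductal cultures. PDAC replicate 2 was the lowest, and the groups were 0.35 apart. Junb averaged 8.22 ± 0.30 (SD, n = 3) in PDAC and 8.85 ± 0.04 (SD, n = 2) in normal ductal cultures, a log2 fold change of -0.62 (SE 0.21, unadjusted p = 0.0411, limma adjusted p = 0.351). Ier3, a short-lived protein that shields cells from death and prolongs ERK signalling, had log2 signals of 10.79, 10.20 and 10.82 in PDAC cultures, against 11.33 and 11.23 in normal ductal cultures. Its lowest value was again in PDAC replicate 2, and the gap between the groups was 0.41. The log2 fold change of Ier3 was -0.68 (SE 0.24, unadjusted p = 0.0468, limma adjusted p = 0.365).

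Junb and Ier3 had the most similar profiles of all pairs among the 10 genes. After each was centred on its own mean over the 5 arrays, they differed by a root mean square of 0.08 log2 units, and the next closest pair, Fosl2 and Jund, by 0.33. Both values describe only 5 arrays.

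**Figure D2:**
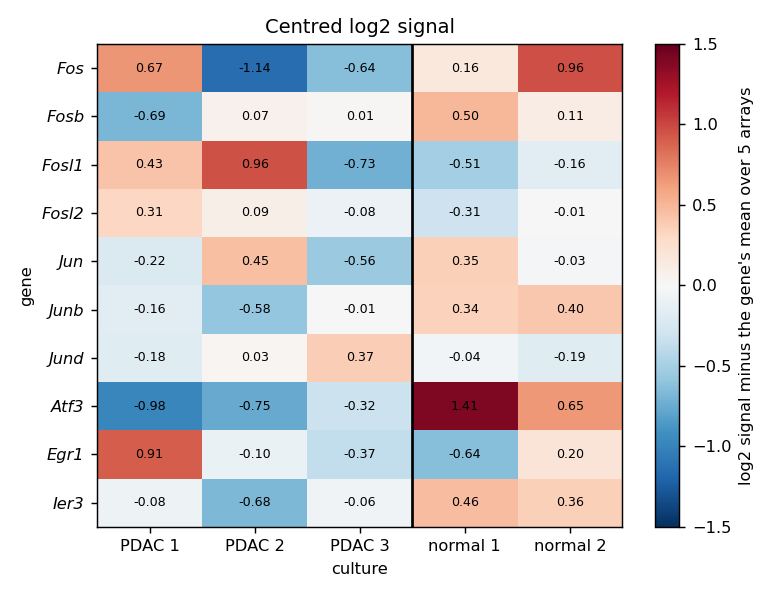
Log2 signal of each gene (rows) minus its mean over the 5 arrays, for 3 PDAC and 2 normal ductal cultures (columns), with red above and blue below the mean. Atf3 separates the groups, Junb and Ier3 share a pattern, and Fos and Egr1 are high in PDAC replicate 1 and, of the normal ductal cultures, in replicate 2.

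Proximal promoters of Atf3, Junb and Ier3 are shown with those of Fos and Jun, whose groups overlapped, because CREB, Jun and NF-kB proteins are known to act close to the start of several of these genes. Each is the 150 bases before the RefSeq start in GRCm38.p6, read on the strand of the gene, with capitals on matches to the motifs below. RefSeq sequence was matched for 8 of the 10 genes, without Fosl1 and Egr1.
Atf3 at chr1:191183334-191183483, minus strand: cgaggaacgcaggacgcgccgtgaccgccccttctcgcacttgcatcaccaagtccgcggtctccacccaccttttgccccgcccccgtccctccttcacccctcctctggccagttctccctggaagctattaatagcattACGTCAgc
Junb at chr8:84978749-84978898, minus strand: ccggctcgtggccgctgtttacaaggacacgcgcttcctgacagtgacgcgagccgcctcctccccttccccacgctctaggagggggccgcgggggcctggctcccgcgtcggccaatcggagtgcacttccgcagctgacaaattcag
Ier3 at chr17:35821563-35821712, plus strand: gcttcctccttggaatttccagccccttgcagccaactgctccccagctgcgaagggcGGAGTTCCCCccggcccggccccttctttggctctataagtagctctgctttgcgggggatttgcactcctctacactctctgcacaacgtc
Fos at chr12:85473740-85473889, plus strand: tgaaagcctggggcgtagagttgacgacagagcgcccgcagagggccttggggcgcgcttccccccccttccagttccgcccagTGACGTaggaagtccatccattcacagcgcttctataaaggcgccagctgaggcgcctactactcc
Jun at chr4:95052223-95052372, minus strand: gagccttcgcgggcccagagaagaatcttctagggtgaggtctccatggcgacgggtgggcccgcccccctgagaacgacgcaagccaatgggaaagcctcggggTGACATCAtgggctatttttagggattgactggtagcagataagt

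The motifs were searched on both strands of the 300 bases from 250 before to 50 after each start. The core of the cAMP response element, TGACGT, lay 66 to 61 bases before the start of Fos, and on the opposite strand 8 to 3 bases before that of Atf3. It was found in 7.51% of 32851 promoters. The Jun promoter held TGACATCA, the variant AP-1 site of that gene, 45 to 38 bases before its start, a motif in 3.62% of promoters. Ier3 had a match to the NF-kB site on the opposite strand 92 to 83 bases before its start (4.51% of promoters), and Fos, Fosb and Fosl2 had one farther from the start than the printed bases. The AP-1 site TGANTCA (7.81%) and the SRF-bound CArG box (1.63%) matched none of the 8 promoters, and Junb matched none of the motifs. The site of EGR proteins, GCGGGGGCG (2.91%), lay in the windows of Fosb and Fosl2. In the 5 sequences printed no matches overlapped. The matches describe letters in these windows only.

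Fos, the founding member of its family and a sensor of growth factor input, varied widely among the PDAC cultures. Its log2 signal was 8.00, 6.19 and 6.70 in PDAC replicates 1, 2 and 3, against 7.50 and 8.30 in normal ductal replicates 1 and 2. PDAC replicate 1 lay among the normal ductal values and the other PDAC cultures below them. Fos averaged 6.97 ± 0.93 (SD, n = 3) in PDAC and 7.90 ± 0.57 (SD, n = 2) in normal ductal cultures, a log2 fold change of -0.94 with a 95% interval of -2.80 to 0.93 (limma adjusted p = 0.556). The range of 1.81 among PDAC cultures was wider than that of 97.1% of all genes, 721 of which had 1 value in every array. On this scale the other members ran from 63.8% (Fosl2) to 96.5% (Fosl1), with Egr1 at 93.9% and Jun at 90.7%. Over the 5 arrays the range of Fos was wider than that of 91.7% of genes with a mean above the median. Without PDAC replicate 1 the log2 fold change of Fos was -1.46, and without PDAC replicate 2 it was -0.55, or -0.54 without normal ductal replicate 2.

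Egr1, a zinc finger factor induced by serum through SRF and ERK, showed the same high culture. Its log2 signal was 10.36, 9.35 and 9.08 in PDAC cultures, against 8.81 and 9.65 in normal ductal cultures. PDAC replicate 1 was the highest of all 5, and normal ductal replicate 2 lay 0.84 above replicate 1. The log2 fold change of Egr1 was 0.37 (95% interval -1.09 to 1.83, limma adjusted p = 0.753). Its direction hung on single cultures: the value was -0.012 without PDAC replicate 1, -0.049 without normal ductal replicate 1, 0.63 without PDAC replicate 3 and 0.79 without normal ductal replicate 2. PDAC replicate 1 exceeded the mean of the other PDAC cultures by 1.56 for Fos and by 1.14 for Egr1, but lay 0.72 below it for Fosb.

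Fosb, which like Fos is a strong activator, had log2 signals of 6.51, 7.26 and 7.20 in PDAC cultures, against 7.69 and 7.30 in normal ductal cultures. The closest cultures, PDAC replicate 2 and normal ductal replicate 2, were nearly equal. Its log2 fold change was -0.51 (95% interval -1.36 to 0.35, limma adjusted p = 0.55). The value was -0.27 without PDAC replicate 1 and -0.31 without normal ductal replicate 1.

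Fosl1, which encodes Fra-1, a Fos protein kept high by Ras and ERK activity in invasive carcinoma cells, had log2 signals of 9.99, 10.52 and 8.84 in PDAC cultures, against 9.06 and 9.40 in normal ductal cultures. PDAC replicates 1 and 2 were above both normal ductal cultures and PDAC replicate 3 was below both. The log2 fold change of Fosl1 was 0.55 (95% interval -1.07 to 2.17, limma adjusted p = 0.681), and 1.03 without PDAC replicate 3 (limma adjusted p = 0.324) against 0.18 without PDAC replicate 2. PDAC replicate 3 was also the PDAC culture with the highest duct markers (mean log2 signal 9.81, with 6.83 in replicate 1 and 7.92 in replicate 2), and the link to Fosl1 was not tested. Fosl2, which encodes the related Fra-2, spread less, with 10.28, 10.07 and 9.89 in PDAC cultures against 9.66 and 9.97 in normal ductal cultures. Its groups overlapped only through PDAC replicate 3 and normal ductal replicate 2, and the log2 fold change of Fosl2 was 0.26 (95% interval -0.22 to 0.75, limma adjusted p = 0.55). It was 0.16 without PDAC replicate 1, 0.11 without normal ductal replicate 1 and 0.42 without normal ductal replicate 2.

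Jun, the main partner of Fos proteins and target of the JNK kinases, had log2 signals of 9.90, 10.56 and 9.56 in PDAC cultures, against 10.47 and 10.08 in normal ductal cultures. The normal ductal values lay inside the range of the PDAC values. Its log2 fold change was -0.27 (95% interval -1.28 to 0.74, limma adjusted p = 0.74). Single cultures moved it to -0.044 (without PDAC replicate 3), -0.55 (without PDAC replicate 2), -0.077 (without normal ductal replicate 1) or -0.46 (without normal ductal replicate 2). Jund, the steadily made Jun protein, had 9.10, 9.32 and 9.65 in PDAC cultures against 9.24 and 9.09 in normal ductal cultures, the narrowest range over 5 arrays among the 10 genes at 0.56. Its log2 fold change was 0.19 (95% interval -0.37 to 0.74, limma adjusted p = 0.687), or 0.31 without PDAC replicate 1, 0.039 without PDAC replicate 3 and 0.11 without normal ductal replicate 2. For these genes the intervals still allow differences of up to 0.74 in the direction of higher PDAC signal, and down to -1.28 for Jun and -0.37 for Jund in the other.

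**Figure D3:**
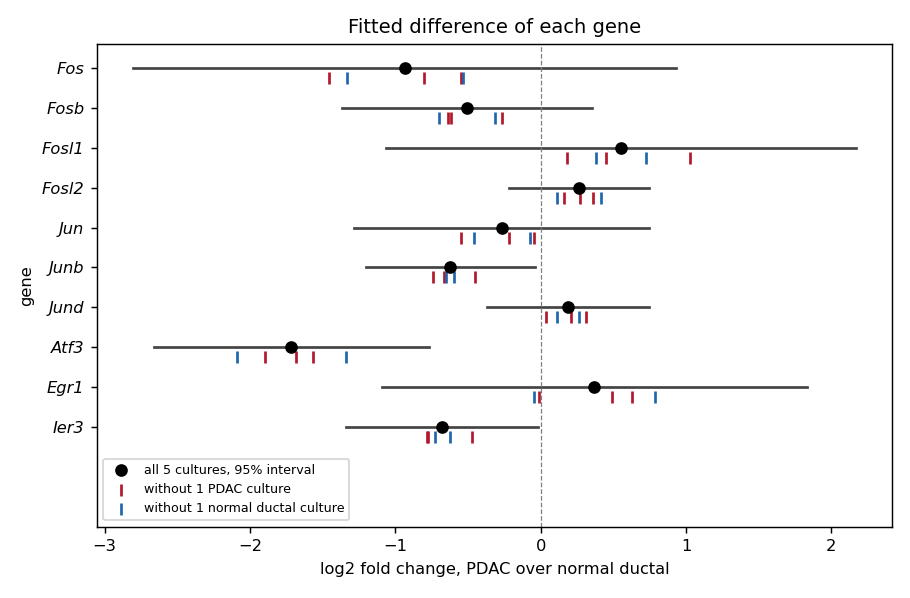
Log2 fold change, PDAC over normal ductal (horizontal axis), of each gene with its 95% interval from the limma fit, and below it the value with 1 PDAC culture (red ticks) or 1 normal ductal culture (blue ticks) left out. Fos, Fosb, Jun, Junb, Atf3 and Ier3 stay below 0 and Fosl1, Fosl2 and Jund above 0 in every such fit, and the Egr1 ticks lie on both sides of 0.

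The related genes were taken from lists of AP-1 partners, other immediate early genes, upstream regulators and targets. In none of these lists did limma call a gene after adjustment over all genes, so the 3 members with the smallest p are named for each. Of 32 other immediate early genes, 26 had a log2 fold change below 0, with a list median of -0.50. That median was -0.24 without normal ductal replicate 2 and -0.17 without PDAC replicate 3. The groups did not overlap for 12 of them, 11 lower and 1 higher in PDAC, so that 34.4% parted the groups downward against 12.8% of all genes. At an unadjusted p under 0.05, 7 were lower and 1 higher, against 6.86% and 6.5% of all genes. Without normal ductal replicate 2, 15 of 32 (46.9%) were lower in every PDAC culture against 31.7% of all genes, and without replicate 1 it was 18 of 32 (56.2%) against 19.6%.

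Gadd45a, a stress gene of growth arrest that p53 can switch on, had log2 signals of 7.35, 7.81 and 7.81 in PDAC cultures, against 9.78 and 9.40 in normal ductal cultures. Every PDAC culture was more than 1 log2 unit below both normal ductal cultures, and the log2 fold change of Gadd45a was -1.93 (SE 0.22, limma adjusted p = 0.149). Its relative Gadd45b had -1.08 (SE 0.15, limma adjusted p = 0.166). Ppp1r15a, which brings a phosphatase to the translation factor eIF2 and lies with Atf3 in the integrated stress response, had -0.85 (SE 0.11, limma adjusted p = 0.164). None of the 3 passed the adjusted test.

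Immediate early genes also differed among the PDAC cultures. PDAC replicate 3 was the lowest PDAC culture for 23 of 29 other immediate early genes with no tied PDAC values (79.3%), against 39.9% of 13326 such genes overall. Their list mean was 8.77, 8.71 and 8.20 in PDAC replicates 1, 2 and 3, against 8.93 and 9.15 in normal ductal replicates 1 and 2. Replicate 3 was the lowest PDAC culture for 4 of the 10 genes of the Fos, Jun and Atf3 group, namely Fosl1, Fosl2, Jun and Egr1. That share of 40% was about the 39.9% of genes overall. The title of PDAC replicate 3 alone adds the words mutant cell.

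Among 11 measured AP-1 partner genes of the basic leucine zipper class, Maff and Mafk, small Maf proteins that lack an activating domain, were lower in every PDAC culture. The third small Maf gene, Mafg, overlapped between the groups (log2 fold change -0.12). Maff had log2 signals of 7.48, 7.52 and 7.12 in PDAC cultures, against 9.04 and 8.42 in normal ductal cultures, with a log2 fold change of -1.35 (SE 0.26, limma adjusted p = 0.21). Mafk had -0.69 (SE 0.21, limma adjusted p = 0.324), with log2 signals of 7.90, 7.96 and 7.72 in PDAC cultures against 8.84 and 8.28 in normal ductal cultures. The large Maf protein gene Maf went the other way, with a log2 fold change of 1.27 (SE 0.39, limma adjusted p = 0.323) and every PDAC culture above both normal ductal cultures. Its log2 signals were 8.14, 8.58 and 8.26 in PDAC cultures, against 6.52 and 7.59 in normal ductal replicates 1 and 2. The list median was 0.02, and the groups parted for 2 lower and 2 higher genes of 11, against 12.8% and 13.6% of all genes.

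Upstream kinases and the SRF and CREB factors (18 measured of 23 listed) had a median log2 fold change of -0.07, which turned to 0.01 without normal ductal replicate 2 and to 0.05 without PDAC replicate 3, and was -0.13 without PDAC replicate 1. In every PDAC culture 3 were lower and 3 higher, or 16.7% each way, against 12.8% and 13.6% of all genes. Without normal ductal replicate 1 the lower count was 7 of 18 (38.9%), against 19.6% of all genes, and without PDAC replicate 1 it was 7 of 18 against 15.3%. Elk1, an ERK target that binds with SRF, had 0.63 (SE 0.20, limma adjusted p = 0.332). Crem, a CREB relative whose short form represses cAMP response elements, had -0.53 (SE 0.17, limma adjusted p = 0.34). Log2 signals of Crem were 5.68, 5.87 and 5.80 in PDAC cultures, against 6.54 and 6.08 in normal ductal replicates 1 and 2. Its PDAC values lay below the array medians of all probe sets (5.90 to 6.02), and whether they stood above background was not tested. Mrtfb, an actin-regulated partner of SRF, had -0.63 (SE 0.24, limma adjusted p = 0.411).

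Textbook AP-1 targets (19 measured) had a median log2 fold change of -1.02. In this list 9 genes were lower and 0 higher in every PDAC culture, against 12.8% and 13.6% of all genes, and 7 were lower at an unadjusted p under 0.05 against 6.86% of all genes. The cytokine gene Csf2 had log2 signals of 4.79, 5.23 and 5.33 in PDAC cultures, against 7.78 and 7.12 in normal ductal cultures. Its log2 fold change was -2.33 (SE 0.29, limma adjusted p = 0.162). The PDAC values of Csf2 lay below the array medians of all probe sets (5.90 to 6.02). Whether they stood above background was not tested. Lif, a secreted relative of interleukin-6, had -2.46 (SE 0.47, limma adjusted p = 0.21), and the EGF receptor ligand Hbegf -1.13 (SE 0.24, limma adjusted p = 0.223). In normal ductal replicate 2, 6 of the 19 targets lay more than 1 log2 unit above replicate 1, and this was also the culture with high fibroblast and acinar markers. Without it 10 of 19 (52.6%) were lower in every PDAC culture, against 31.7% of all genes, and without replicate 1 it was 15 of 19 (78.9%) against 19.6%.

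Egr1 corepressors and targets (6 measured) had a median log2 fold change of -0.49 beside the overlapping values of Egr1 itself. The corepressor genes Nab2 (0.93) and Nab1 (0.15) were above 0, and the 4 targets were below. In every PDAC culture 3 of the 6 were lower and 1 higher, against 12.8% and 13.6% of all genes. Pdgfb, a platelet-derived growth factor, had log2 signals of 7.67, 7.03 and 8.41 in PDAC cultures, against 11.63 and 10.89 in normal ductal cultures, a log2 fold change of -3.56 (SE 0.52, limma adjusted p = 0.169). F3, the tissue factor that starts blood clotting, had -2.60 (SE 0.53, limma adjusted p = 0.218), and Pdgfa -0.33 (SE 0.11, limma adjusted p = 0.34).

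**Figure D4:**
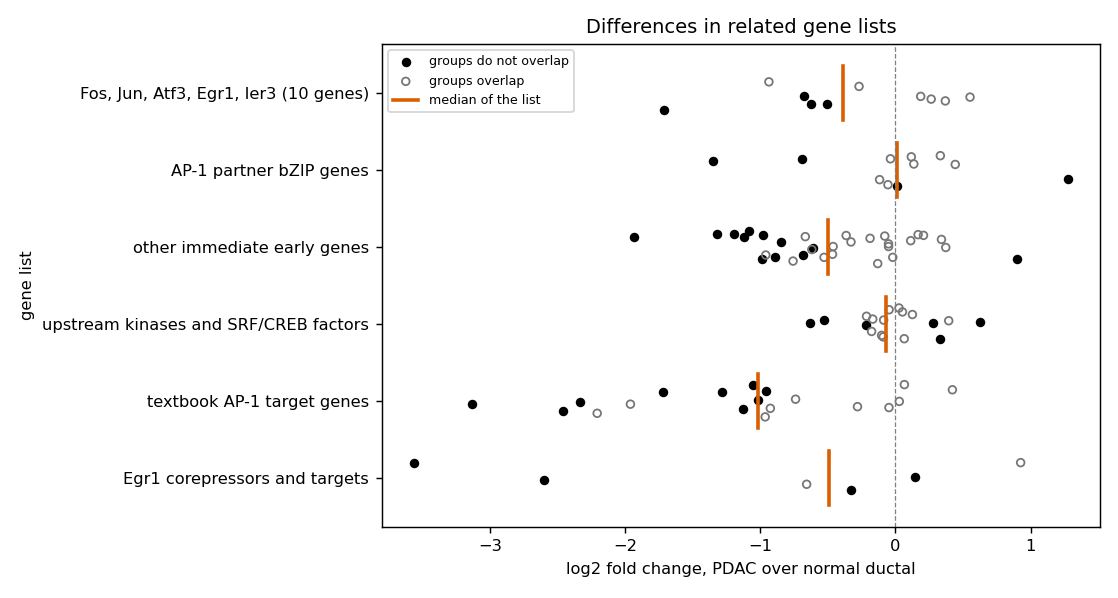
Log2 fold change, PDAC over normal ductal (horizontal axis), of every measured gene of each list, filled where the PDAC and normal ductal cultures do not overlap, with the list median as a bar. The medians are -0.39 for the Fos, Jun, Atf3, Egr1 and Ier3 genes, -0.50 for other immediate early genes and -1.02 for textbook AP-1 targets, and that of the other immediate early genes was -0.24 without normal ductal replicate 2 and -0.17 without PDAC replicate 3.

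For the 4 genes whose range over the 5 arrays was above 1.5, the genes with the most similar centred profile were sought among genes with a mean above the median. Likeness was the root mean square difference over the 5 arrays. Those nearest to Atf3 were Fjx1 (0.09), Krt80 (0.10) and Pkp1 (0.12), which encode a Golgi protein, an epithelial keratin and a desmosome plaque protein. Adamts6 (0.18), Tent5a (0.19) and Renbp (0.19) were nearest to Fos. E2f6 (0.12), Spata5 (0.13) and Rpp40 (0.13) were nearest to Fosl1, all with their lowest PDAC value in replicate 3. Hhipl1 (0.10), Id4 (0.11) and Lima1 (0.14) were nearest to Egr1, each highest in PDAC replicate 1. With 5 arrays and 9968 genes searched, close profiles are a description only.

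**Figure D5:**
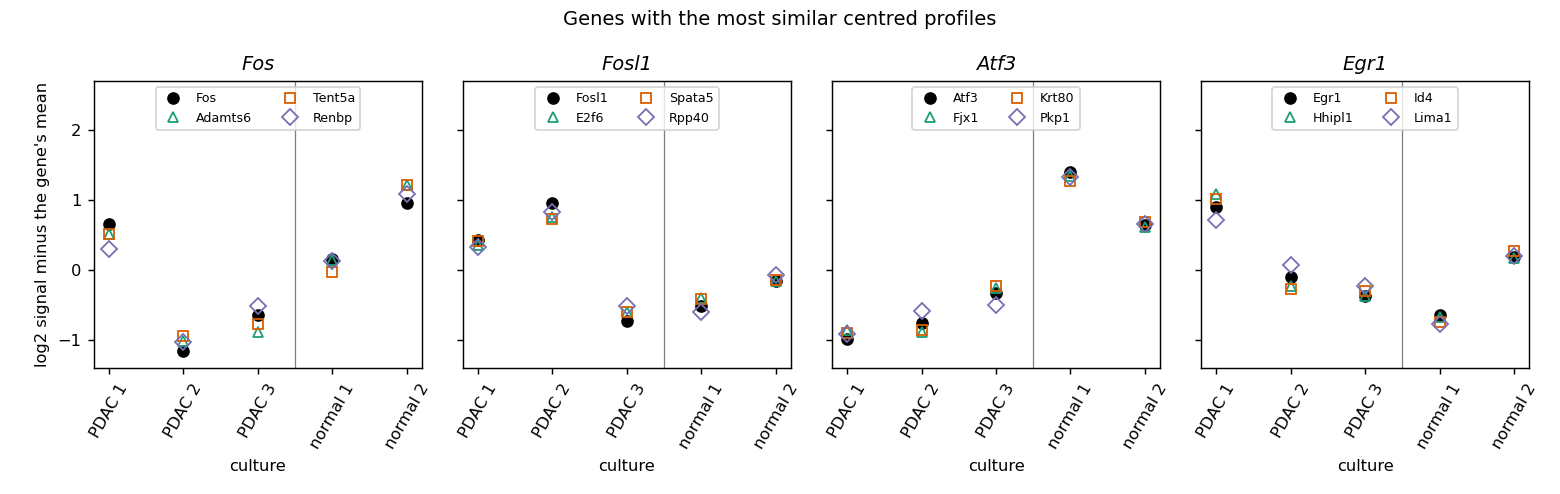
Log2 signal minus each gene's own mean (vertical axis) in 3 PDAC and 2 normal ductal cultures (horizontal axis) for Fos, Fosl1, Atf3 and Egr1, each with its 3 nearest genes. Only the Atf3 panel separates the groups, while PDAC replicate 1 leads for Egr1 and PDAC replicate 2 for Fosl1.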

How the data were processed

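The authors deposited 1 log2 signal per probe set and array (35556 probe sets, array medians 5.90 to 6.02). That the scale is log2 is an inference from their range. RNA was amplified and labelled with biotin, per the labels' protocols. Transcriptome Analysis Console 1.0.0.234 and mm10 are named, per the submitters' processing notes. How background, normalization and probe summary were handled is not given in the sources used. Probe sets with 1 gene symbol in the platform annotation (21789) were kept, and the probe set with the highest mean was used per gene, which left 19938 genes. Coordinates and promoters are from RefSeq, GRCm38.p6, the assembly of mm10. Older symbols in the lists were matched through RefSeq synonyms.

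Groups came from the titles. R 4.3.3 with limma 3.58.1 fitted all genes (lmFit, then eBayes with an intensity trend, 3 residual degrees of freedom, two-sided). The p-values were adjusted by Benjamini-Hochberg over the 19938 genes, with calls at 0.05; the fit was checked on simulated data. A fold change is on the log2 scale, PDAC minus normal ductal. All 10 genes are named, and so are, in each related list, called genes or else the 3 lowest in p. Genes and lists were chosen with earlier results of these data known. The settings varied were scaling (quantile or a common median), a filter on the dimmest 25% or 50% of genes, no trend, a robust prior, array weights, the mean of probe sets, a replicate block and leaving out each culture. Listed genes without a probe set of their own in the annotation used were not analysed here. Figures used matplotlib 3.10.9.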

Additional observations from a re-analysis of the deposited data

How the results depend on the processing

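Over 14 alternatives limma called 0 of the 10 genes in each, and 138 of 140 recomputed fold changes kept their direction. The exceptions were those of Egr1 without PDAC replicate 1 (-0.012) and without normal ductal replicate 1 (-0.049), while the highest value of Egr1, 0.79, came without normal ductal replicate 2. Many of the 140 could not change direction. The filters on dim genes, no trend, the robust prior and the mean of probe sets left the fold changes of the 10 genes as they were. The replicate block gave the same fold changes as leaving out PDAC replicate 3. At an unadjusted p under 0.05 the count of 3 was 1 with array quality weights and 1 to 3 with a culture left out. With a culture left out, 4 to 5 of the 10 genes were lower and 0 to 2 higher in every remaining PDAC culture, and the median of the 10 ran from -0.50 to -0.20. The share of all genes that were lower moved too, from 12.8% with all cultures to 31.7% without normal ductal replicate 2. In that setting 4 of the 10 genes (40%) were lower. Without normal ductal replicate 1 the share was 19.6%, beside 5 of the 10 genes (50%). Of all genes, limma called 80 with arrays at a common median, 42 after quantile normalization, 42 without the lowest 50% of genes, 3 with array quality weights and 0 to 1287 with a culture left out, against 11 as deposited. A fit with 1 normal ductal culture assumes that it varies like the PDAC cultures. With the replicate block limma called 0 genes, and 2 of the 10 genes had an unadjusted p under 0.05. Same-numbered cultures deviated with correlations of -0.18 (replicate 1) and -0.042 (replicate 2). With 2 normal ductal cultures the deviations of each mirror those of the other, so these values cannot tell whether the numbers pair cultures. The causes were not tested.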

Other observations

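Some immediate early genes of the Egr and Nr4a families, named after their values were seen, also varied between cultures of a group. Others varied less, with a range over the 5 arrays of 0.43 for Egr3 and 0.50 for Egr4. Nr4a3 had a range of 0.07 among PDAC cultures, while normal ductal replicate 2 lay 1.47 above replicate 1. Egr2, a zinc finger factor related to Egr1, had log2 signals of 9.06, 6.43 and 6.41 in PDAC replicates 1, 2 and 3, against 6.71 and 9.81 in normal ductal replicates 1 and 2. Like Egr1 it was highest among PDAC cultures in replicate 1 and, of the normal ductal cultures, highest in replicate 2. The orphan receptor gene Nr4a1 had 8.23, 8.62 and 6.90 in PDAC cultures against 7.84 and 9.33 in normal ductal cultures, lowest in PDAC replicate 3. Ccn1 and Ccn2, secreted matrix proteins induced through SRF and YAP, were also lowest in PDAC replicate 3, at 11.85 and 11.58 against 13.22 and 13.35 in normal ductal replicate 1.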
